A study of Sus scrofa with 6 samples.

Results

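The comparison described here set piPSCs, pig cells made pluripotent by induction, at passage 10, labelled Rex1 negative and called P10 below, against piPSCs at passage 5, labelled Rex1 positive and called P5. Induced pluripotent stem cells are body cells that reprogramming factors have returned to an embryo-like state. Another group, the fibroblasts from which the piPSCs came (PEF, at passage 5), is given as background. All 3 groups came from the Small Xiang Pig and had 2 RNA sequencing libraries each, 6 in all. The labels do not say whether the libraries of a group were separate cultures, or whether the piPSCs were 1 clone. Passage and Rex1 state changed together, so they cannot be told apart. A gene ID was compared where it reached an FPKM of 1 in P10 or in P5, which 13400 of the 25322 IDs in the table did (52.9%), 8637 of them with a gene symbol. The highest value among the 11922 IDs left out was 0.999. FPKM corrects the fragment count of a gene for its length and for library size.

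Rex1 is the product of ZFP42, a zinc finger protein that in mouse cells marks undifferentiated cells of the naive kind and is lost as they leave that state. Pluripotent cells in culture keep an epithelial character, with E-cadherin junctions, and divide quickly. When they leave pluripotency without added signals, neural genes are often among the first to appear. The IDs of ZFP42, POU5F1, SOX2 and NANOG were not matched and are not analysed here, so the labelled Rex1 state was not checked against expression.

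The table held 1 value per gene and group, the authors' group value, so no difference given here has a replicate check, an SD or a p-value. FPKM summed to 826083 in P10, 628992 in P5 and 821130 in PEF. The share of that sum held by mitochondrially encoded genes was 31.1% in P10, 19.1% in P5 and 15.7% in PEF. ATP8, at a locus shared by 3 IDs, alone held 21.0% in P10, 8.77% in P5 and 6.60% in PEF, which is more than the whole difference between P10 and P5. Against the labels, 8 of 10 fibroblast markers had a row, and their FPKM summed to 38.6 in P10, 121 in P5 and 9134 in PEF. The 4 of 12 pluripotency markers with a row, LIN28A, DNMT3B, EPCAM and CDH1, summed to 243 in P10, 548 in P5 and 2.22 in PEF. LIN28A, with 204 in P10 and 299 in P5, made up most of each piPSC sum. EPCAM and CDH1 are also described below with the epithelial genes. Among markers of other lineages, CDX2 and ELF5 of trophectoderm, FOXA2 of endoderm and PTPRC of blood cells were listed at 0 in P10 and were under an FPKM of 1 in P5. Other markers of these lineages were detected: GATA3 of trophectoderm had 3.63 in P10 and 1.65 in P5, GATA6 of endoderm had 3.51 in P10 and 3.92 in P5, CD68 of blood cells had 3.34 in P10 and 1.09 in P5 and CD14 had 1.07 in P10 and 0.607 in P5. In bulk RNA, fewer cells of a type and less RNA per cell cannot be told apart.

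Differences are P10 minus P5 on the log2(FPKM + 1) scale, which understates those of low genes, and a gene was counted where the difference reached 1, that is 2-fold. On this scale 1060 IDs were higher in P10 (7.91% of those compared), 1187 were lower (8.86%), and 11153 were neither. Together the counted IDs made up 16.8%. Among IDs with a symbol the shares were 6.09% higher and 8.22% lower, and these are the shares against which the gene lists below are read. The median difference over all compared IDs was -0.05, and the middle 50% of IDs lay between -0.49 and 0.42. A difference of 2 or more was reached by 171 IDs in the higher direction and 203 in the lower. With the columns set to equal sums without mitochondrial genes, 815 IDs were higher and 1500 lower, so that 35.2% of the counted IDs were higher, against 47.2% as deposited. That rescaling moved the median difference by -0.14.

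**Figure D1:**
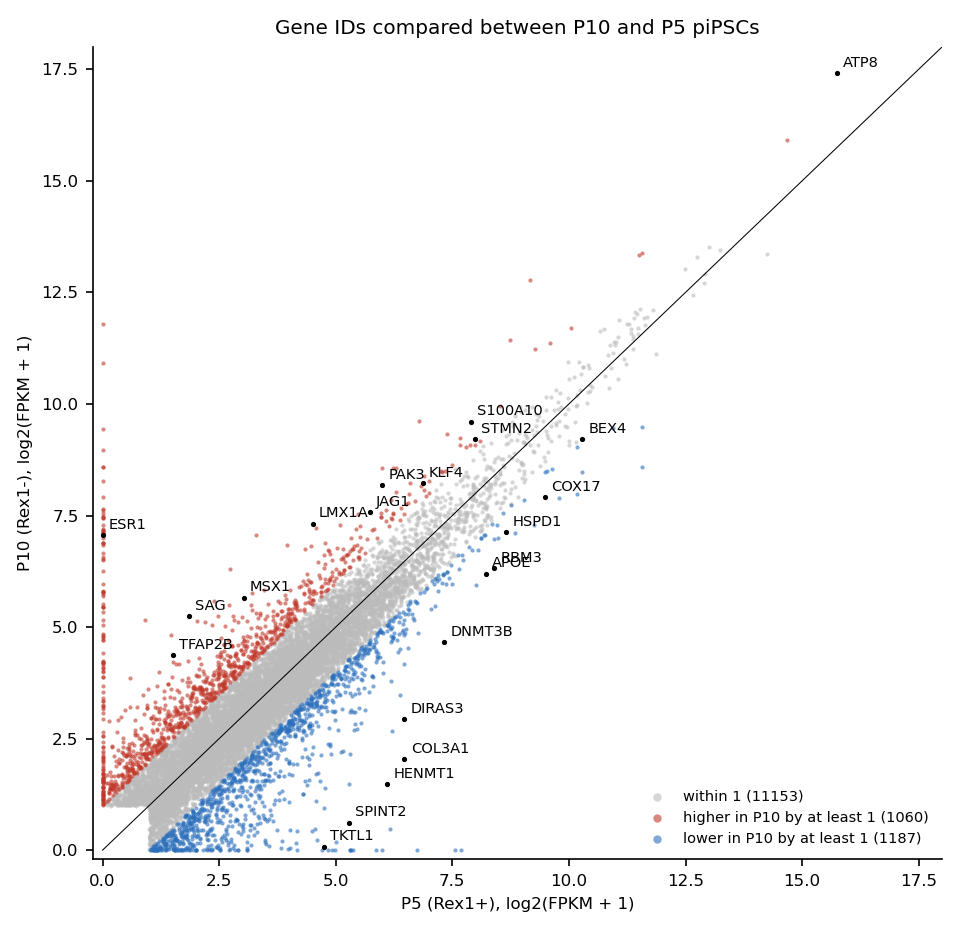
Level of each compared gene ID in P10 (vertical axis) against P5 (horizontal axis), both as log2(FPKM + 1), with IDs counted as higher or lower in P10 coloured. Each point is 1 ID with the authors' group values, and the 1060 higher and 1187 lower IDs lie on either side of the 11153 that were neither.

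Counted IDs occurred at every level. Of the 4617 IDs with a mean FPKM under 5, 8.51% were higher and 11% lower in P10. Of the 693 IDs with a mean of at least 100, 9.67% were higher and 7.65% lower. Many of the counted genes were scarce in the fibroblasts: PEF was under an FPKM of 1 for 400 of the 1060 higher IDs (37.7%) and for 361 of the 1187 lower ones (30.4%), against 16.6% of all compared IDs. IDs at a locus shared with another ID, where the division of reads is uncertain, made up 17.4% of the higher, 14.8% of the lower and 17.5% of all compared IDs.

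Several of the genes with the lowest differences encode products of epithelial surfaces. SPINT2, which encodes a membrane-bound inhibitor of serine proteases at epithelial surfaces (susScr3 chromosome 6, 42701293 to 42710420), had an FPKM of 0.535 in P10, 37.9 in P5 and 1.03 in PEF. The tight junction protein gene CLDN4 had 1.79 in P10, 38.0 in P5 and 0.205 in PEF. Values given for a gene from here on are FPKM. In both genes P5 stood far above P10 and PEF. TMEM171 had the lowest difference of the genes that the naming rule ranked, -4.83, with 0.130 in P10, 31.1 in P5 and 0.0385 in PEF. TKTL1, a relative of the transketolase of the pentose phosphate pathway, had 0.0546 in P10, 26.0 in P5 and 0.0161 in PEF. SERPINB7, a serine protease inhibitor of the serpin family, had 0.0156 in P10, 14.6 in P5 and 0.0388 in PEF. These last 3 were close to 0 in P10 as in the fibroblasts, and P5 was the group apart.

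The list of epithelial junction and polarity genes had 30 compared members, of which 16 were lower in P10 (53.3%) and 0 higher, with a median difference of -1.03. CDH1, the E-cadherin of adherens junctions, had 7.89 in P10, 48.7 in P5 and 0.103 in PEF. EPCAM, an epithelial adhesion protein, had 6.07 in P10, 41.6 in P5 and 0.227 in PEF. CDH3, the P-cadherin, had 2.31 in P10, 12.1 in P5 and 0.394 in PEF. The keratin gene KRT8, which encodes an intermediate filament protein of simple epithelia, had 727 in P10, 630.3 in P5 and 5.46 in PEF. Its partner KRT18 had 606 in P10, 749 in P5 and 3.82 in PEF at a locus shared by 2 IDs, and neither keratin was counted. Of the claudins, 3 of 6 compared members were lower and 0 higher (median -1.29). The mesenchymal transition factors had 1 of 9 members higher and 2 lower (median 0.40), and ZEB1, a repressor of E-cadherin, had 30.1 in P10, 16.4 in P5 and 81.8 in PEF.

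**Figure D2:**
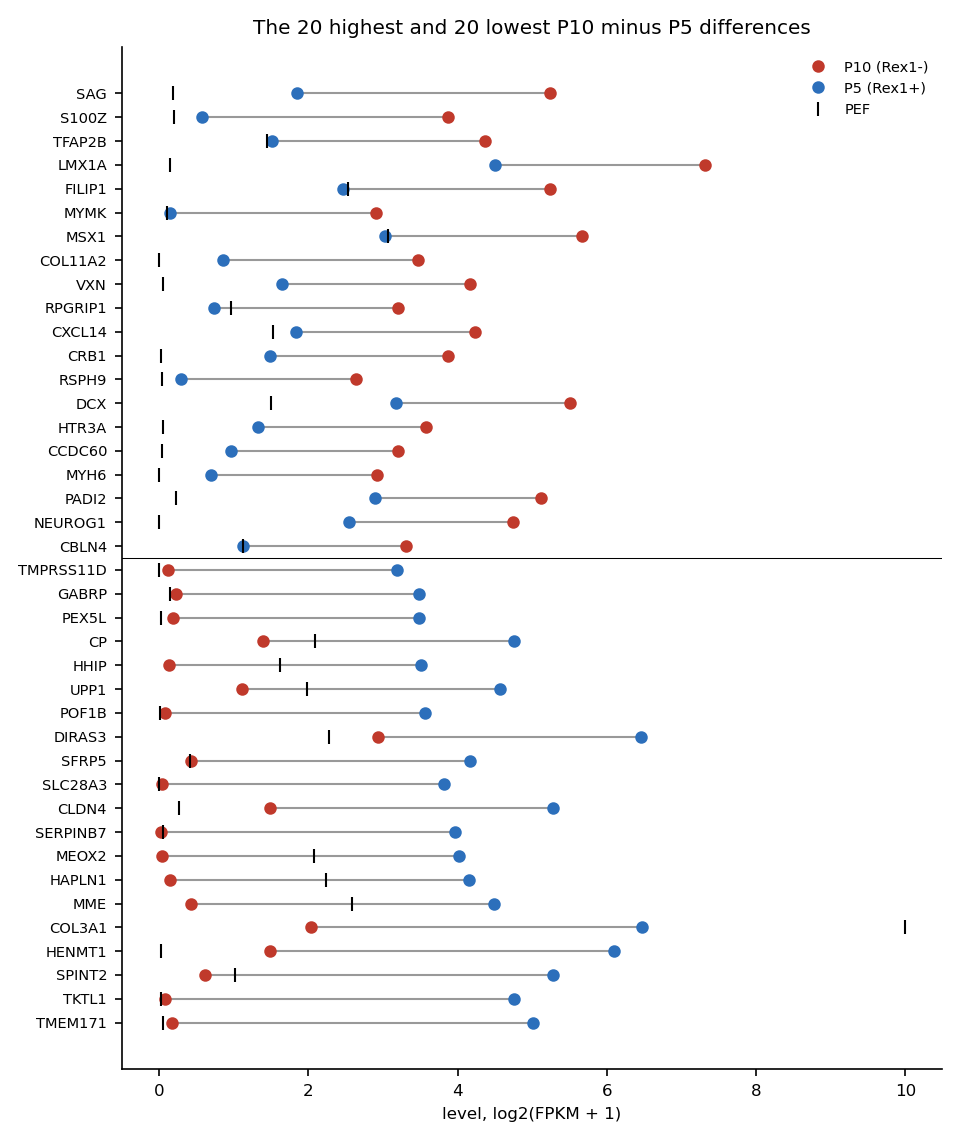
Levels on the log2(FPKM + 1) scale of the 20 genes with the highest and the 20 with the lowest differences among genes with a symbol that reached an FPKM of 5 and had no 0 in P10 or P5, with the level of each gene in P10 and P5 as coloured points joined by a line and in PEF as a black tick. SAG stands at the high end with a difference of 3.39 and TMEM171 at the low end with -4.83.

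Of the pluripotency core list, 24 genes long, 8 had a row and 7 were compared, with 3 lower, 1 higher and a median of -0.94. DNMT3B, the DNA methyltransferase of early embryonic cells, had 24.4 in P10, 159 in P5 and 1.57 in PEF. ESRP1, an epithelial splicing regulator, had 1.53 in P10, 6.62 in P5 and 0.0979 in PEF. LIN28A, an RNA-binding protein that blocks let-7 maturation, had 204 in P10, 299 in P5 and 0.325 in PEF and was not counted. KLF4 and MYC, both reprogramming factors, had 299 in P10, 116 in P5 and 11.6 in PEF for KLF4 and 981 in P10, 493 in P5 and 40.1 in PEF for MYC. KLF4 was counted as higher, and MYC, at 0.99, lay just under the threshold.

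Genes associated with the naive state had 4 of 9 members lower and 1 higher (median -0.60). The higher member was KLF4, given above as a reprogramming factor. With a pseudocount of 5, 1 naive-state gene was lower and 1 higher (median -0.25). Only 2 of these genes had a mean FPKM of at least 5, 1 of them higher and 1 lower. Genes associated with the primed state had 4 of 9 higher and 0 lower (median 0.40). The 4 higher members were ZIC2 with 109 in P10, 31.7 in P5 and 4.81 in PEF, SALL1 with 46.2 in P10, 16.8 in P5 and 1.32 in PEF, CRABP1 with 354 in P10, 155 in P5 and 22.5 in PEF and ZIC5 with 35 in P10, 16.6 in P5 and 0.828 in PEF. All 4 also have roles in the early nervous system. Their levels in P10 were above those in P5 and in PEF.

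Some genes known from the germ line were among the lowest or were listed at 0 in P10. HENMT1, which methylates the ends of piRNAs, had 1.80 in P10, 67.6 in P5 and 0.0176 in PEF. PAGE4 and ACTL8, known in human as cancer-testis genes, were listed at 0 in P10 and PEF and had 57.0 and 17.1 in P5. KIT, the receptor of stem cell factor, had 2.22 in P10, 15.8 in P5 and 0.888 in PEF. The germ cell list as a whole had 1 of 7 compared members higher and 1 lower (median 0.07), and 20 of its 27 members with a row were under the filter.

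Dorsal neural and neural crest factors stood at the other end. Of 24 compared members 13 were higher in P10 (54.2%) and 1 lower, with a median of 1.04. LMX1A, a LIM homeobox factor of the roof plate and the midbrain floor plate, had 159 in P10, 21.7 in P5 and 0.113 in PEF. TFAP2B, an AP-2 factor of the neural crest, had 19.6 in P10, 1.85 in P5 and 1.73 in PEF. MSX1, a homeobox factor of the dorsal neural tube and crest, had 49.6 in P10, 7.16 in P5 and 7.42 in PEF. LMX1A was already above PEF in P5, whereas TFAP2B and MSX1 in P5 were near their PEF levels. Among other homeobox genes, EN1, a midbrain and hindbrain factor, had 7.66 in P10, 1.64 in P5 and 1.98 in PEF, and LHX1 had 7.68 in P10, 1.88 in P5 and was listed at 0 in PEF. The wider list of LIM, PAX and other homeobox families was split, with 5 of 25 higher and 5 lower. Among its 10 members whose mean FPKM reached 5, 3 were higher and 0 lower (median 0.70). Without the filter on low FPKM its median was -0.07.

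Neuron differentiation genes had 12 of 33 members higher (36.4%) and 2 lower (median 0.65). With a pseudocount of 5 there were 7 higher and 1 lower (median 0.37). Equal sums without mitochondrial genes gave 10 higher and 2 lower (median 0.52). Among the 19 members whose mean FPKM reached 5, 9 were higher and 1 lower (median 0.95). NEUROG1, a proneural helix-loop-helix factor, had 25.8 in P10, 4.84 in P5 and was listed at 0 in PEF. DCX, the microtubule protein doublecortin of migrating neurons, had 44.4 in P10, 8.04 in P5 and 1.84 in PEF. INA, a neuronal intermediate filament, had 34.4 in P10, 7.61 in P5 and 0.951 in PEF. STMN2, a tubulin-binding protein of growing neurites, reached 594 in P10, 253 in P5 and 19.7 in PEF. In each of these 4 genes P10 was highest, P5 intermediate and PEF lowest. ISL1, a LIM factor of motor and sensory neurons, went the other way: it was listed at 0 in P10 and had 3.95 in P5 and 0.0670 in PEF, and it was chosen after its value was seen. The 6 neuron markers with a row summed to 790 in P10, 356 in P5 and 60.2 in PEF, and STMN2 made up most of each piPSC sum. NEFL, a neurofilament subunit and the marker that was lower, had 4.32 in P10, 14.4 in P5 and 0.467 in PEF.

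Neural progenitor genes were mixed, with 3 of 19 higher, 4 lower and a median of 0.26. Among the 13 members whose mean FPKM reached 5, 3 were higher and 0 lower (median 0.64). Without the filter on low FPKM the median was -0.09. FABP7, a fatty acid binding protein of radial glia, had 114 in P10, 42.9 in P5 and 0.343 in PEF. NCAM1, the neural cell adhesion molecule, had 145 in P10, 55.5 in P5 and 13.2 in PEF. RAX and LHX2, eye field and forebrain factors chosen after their values were seen, were lower, with 0.126 in P10 and 3.23 in P5 for RAX and 0.0500 in P10 and 1.34 in P5 for LHX2. PAX6, a central factor of neural progenitors also chosen afterwards, had 31.0 in P10, 24.7 in P5 and 7.58 in PEF and was not counted.

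The synapse list had 4 of 25 members higher and 2 lower (median 0.64). With equal sums without mitochondrial genes 3 were higher and 3 lower. A pseudocount of 5 gave 2 higher and 0 lower (median 0.28). DLG4, the postsynaptic scaffold PSD-95, had 23.2 in P10, 7.27 in P5 and 11.2 in PEF. DLG2 was lower, with 2.22 in P10, 5.48 in P5 and 1.74 in PEF. Axon guidance genes had 8 of 51 higher and 5 lower (median 0.15). The repulsive ligands SLIT1 and SLIT2 were higher, SLIT1 with 8.24 in P10, 1.19 in P5 and 0.00398 in PEF and SLIT2 with 21.1 in P10, 5.06 in P5 and 21.6 in PEF. The netrin family member NTN4 was lower, with 0.981 in P10, 9.94 in P5 and 7.64 in PEF. Voltage-gated channel genes had 8 of 46 higher and 4 lower. SCN1A, a neuronal sodium channel, had 19.5 in P10, 6.17 in P5 and 0.0150 in PEF, and the calcium channel subunit gene CACNA2D1, at a locus shared by 2 IDs, had 1.96 in P10, 20.4 in P5 and 27.3 in PEF.

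A few genes best known from the retina were among the 20 highest. SAG, the arrestin of rod photoreceptors, had the highest difference among genes with a symbol, an FPKM of 5 or more and no 0 in P10 or P5, 3.39, with 36.8 in P10, 2.61 in P5 and 0.141 in PEF. CRB1, a polarity protein of the retina, had 13.7 in P10, 1.82 in P5 and 0.0198 in PEF. RPGRIP1, a protein of the photoreceptor connecting cilium, had 8.22 in P10, 0.673 in P5 and 0.956 in PEF. Other genes of the 20 were of other tissues: MYMK, the myoblast fusion protein myomaker, had 6.49 in P10, 0.105 in P5 and 0.0821 in PEF, and HTR3A, a serotonin-gated channel, had 10.9 in P10, 1.5 in P5 and 0.0390 in PEF. P10 was the highest group in each.

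HOX genes set position along the body axis. Of 28 with a row 15 were compared, all 15 had a difference below 0, and 8 were counted as lower, with a median of -1.21. HOXD9 had 2.17 in P10, 10.9 in P5 and 3.61 in PEF, HOXB3 had 0.803 in P10, 5.24 in P5 and 5.20 in PEF and HOXA7 had 1.95 in P10, 8.96 in P5 and 7.73 in PEF. In P5 these 3 lay near or above their level in PEF, and in P10 below it. HOXA2, at a locus shared by 2 IDs, stayed above PEF in P10. It had 3.67 in P10, 6.09 in P5 and 0.772 in PEF and was not counted. The count of 8 was the same under all 4 rescalings of the columns, but with a pseudocount of 5 it was 2 of 15 (median -0.38), and among members whose mean FPKM reached 5 it was 2 of 4. The mesoderm list had 4 of 7 compared members lower and 0 higher (median -1.52). Of its 18 members with a row 11 were under the filter, and without the filter the median was -0.22. MEOX2, a homeobox factor of somites, had 0.0314 in P10, 15.2 in P5 and 3.21 in PEF. Of the endothelial list 4 of 8 were lower, PECAM1 among them with 1.17 in P10, 12.8 in P5 and 2.78 in PEF. With a pseudocount of 5, 1 mesoderm and 1 endothelial gene were lower.

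In the FGF and ERK list 8 of 32 members were lower, 2 higher, and the median was -0.34. The ETS factors ETV4, ETV5 and ETV1, which are transcribed in response to FGF signals in many tissues, were lower, ETV4 with 0.696 in P10, 9.05 in P5 and 25.8 in PEF. ETV5 had 1.92 in P10 and 8.33 in P5 and ETV1 had 1.69 in P10 and 6.96 in P5, both chosen after their values were seen. Among receptors ERBB3 had 1.93 in P10 and 10.2 in P5 and ERBB4 had 14.2 in P10 and 3.0 in P5. These receptors of the neuregulin family thus differed in opposite directions. ERBB3 lay at a locus shared by 8 IDs, so the division of reads there is uncertain.

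WNT pathway genes had 6 of 40 members higher and 11 lower (median -0.16). Among the 25 members whose mean FPKM reached 5 the direction turned, with 4 higher and 3 lower (median 0.23). Secreted antagonists were among the lower members. SFRP5 had 0.350 in P10, 17.0 in P5 and 0.332 in PEF, FRZB had 0.768 in P10, 8.45 in P5 and 0.673 in PEF, and SFRP1, chosen after its value was seen, had 7.57 in P10, 41.7 in P5 and 387 in PEF. The R-spondin receptor LGR5 had 0.352 in P10, 7.06 in P5 and 3.52 in PEF and the ligand WNT16 had 0.280 in P10, 6.82 in P5 and 0.773 in PEF. On the higher side, chosen after their values were seen, stood AXIN2 and RNF43, feedback inhibitors that WNT signals induce in many tissues. AXIN2 had 45.6 in P10, 12.9 in P5 and 3.34 in PEF and RNF43 had 9.69 in P10, 2.67 in P5 and 0.499 in PEF.

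Of Notch, Hedgehog and retinoid genes 8 of 30 were higher and 8 lower (median -0.24). Among the 21 members whose mean FPKM reached 5 there were 8 higher and 2 lower (median 0.06). HHIP, a Hedgehog-binding inhibitor that Hedgehog signals induce, had 0.101 in P10, 10.4 in P5 and 2.07 in PEF. CDON, a Hedgehog co-receptor, had 35.8 in P10, 9.13 in P5 and 2.82 in PEF. JAG1, a Notch ligand, had 189 in P10, 52.0 in P5 and 7.88 in PEF. The retinoid receptor gene RXRG had 1.04 in P10, 11.8 in P5 and 0.0226 in PEF. RBP4, a secreted retinol carrier chosen after its value was seen, had 0.478 in P10, 2.27 in P5 and 7.83 in PEF. TGF-beta, activin and BMP genes had 3 of 36 higher and 2 lower (median 0.07), BMP7 with 15.2 in P10, 3.43 in P5 and 0.365 in PEF and the receptor gene ACVR1 with 9.05 in P10, 29.8 in P5 and 40.9 in PEF. LIF and STAT3 genes had 1 of 16 higher, which was again the reprogramming factor KLF4, and 2 lower. LIFR, the LIF receptor, had 2.50 in P10, 7.83 in P5 and 6.15 in PEF.

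**Figure D3:**
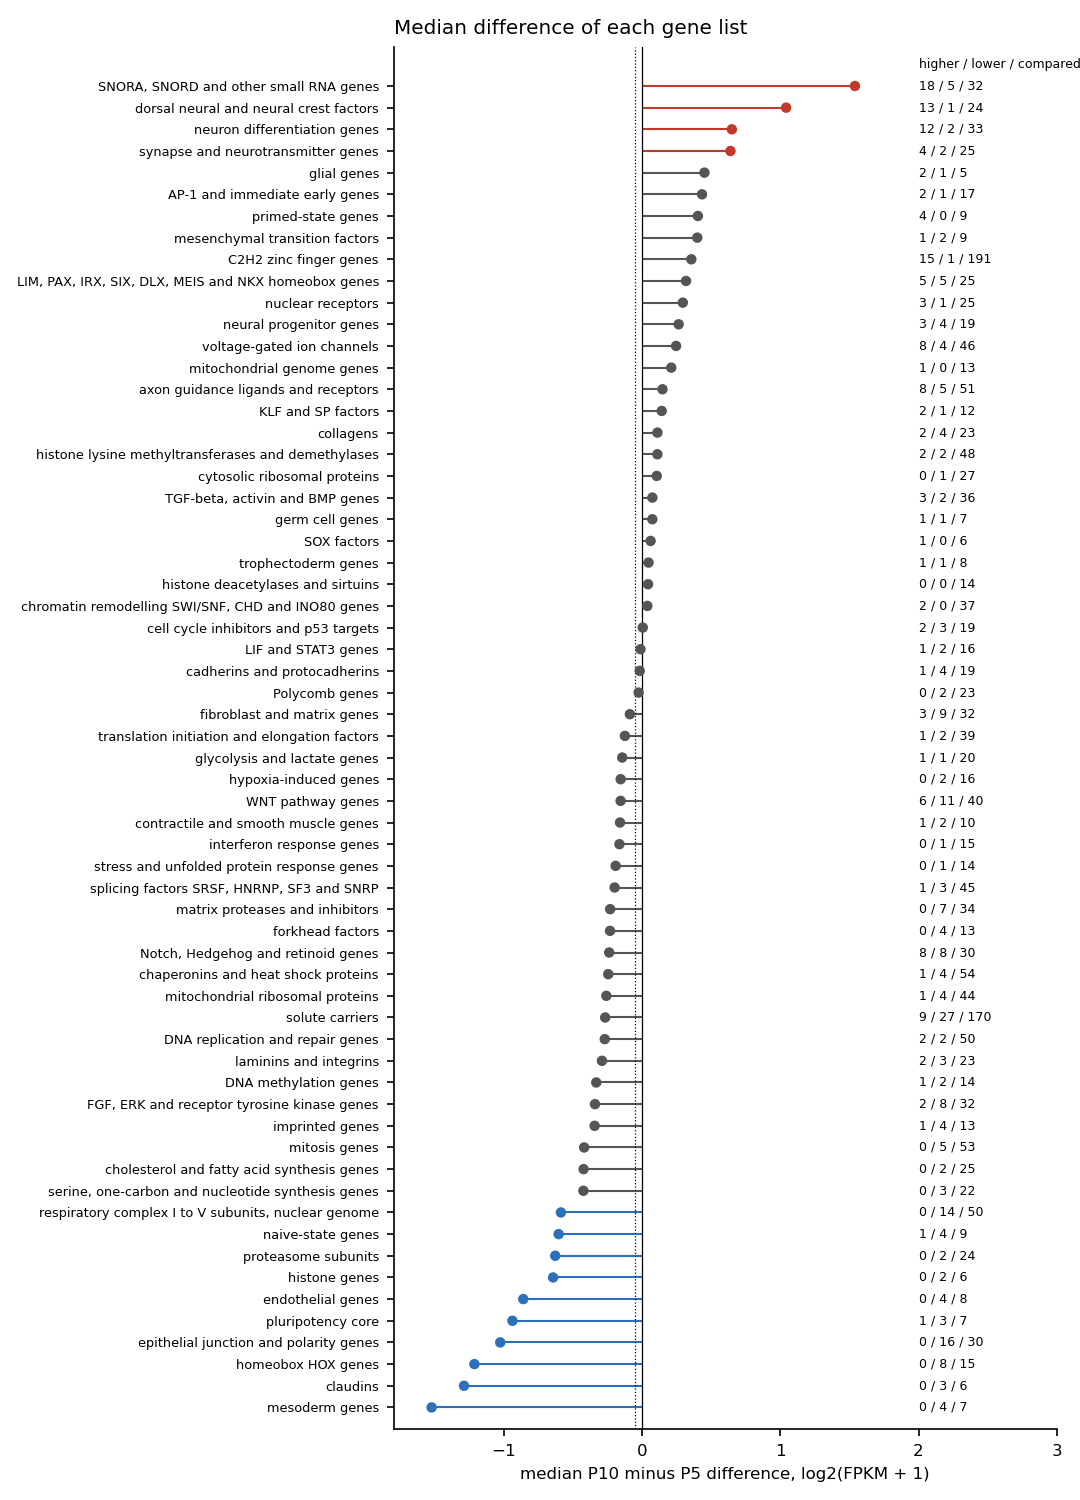
Median difference between P10 and P5 of each gene list with at least 5 compared members, on the log2(FPKM + 1) scale, with the counts of higher, lower and compared members at the right and a dotted line at the median over all compared IDs, -0.05. Of 62 such lists 4 had a median of at least 0.5, 10 had one of -0.5 or less and 48 lay between.

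Collagen and matrix genes of the fibroblasts were low in both piPSC groups. COL3A1, a fibrillar collagen, had 3.11 in P10, 87.9 in P5 and 1016 in PEF. COL5A2 had 5.49 in P10, 18.6 in P5 and 1171 in PEF, and TNC, the matrix glycoprotein tenascin C, had 1.59 in P10, 9.58 in P5 and 309.8 in PEF. COL3A1 is itself 1 of the fibroblast markers and made up most of their sum in P5. Of the other markers DCN, the proteoglycan decorin, had 1.12 in P10, 4.26 in P5 and 50.0 in PEF and was also lower in P10. ACTA2, a smooth muscle actin, had 23.9 in P10, 18.4 in P5 and 4863 in PEF, COL1A2 had 4.05 in P10, 5.83 in P5 and 1266 in PEF, and neither was counted. Over the whole fibroblast and matrix list 9 of 32 members were lower, 3 higher, and the median was -0.09. BGN, the proteoglycan biglycan, was on the higher side with 51.4 in P10, 14.0 in P5 and 1495 in PEF, and was chosen after its value was seen. Collagens had 2 of 23 higher and 4 lower, with COL11A2, a cartilage collagen, at 10.1 in P10, 0.817 in P5 and listed at 0 in PEF. HAPLN1, which links hyaluronan to proteoglycans, had 0.109 in P10, 16.8 in P5 and 3.70 in PEF.

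Of 53 mitosis genes 5 were lower and 0 higher (median -0.42), and 47 had a difference below 0. With equal sums without mitochondrial genes 10 were lower. UBE2C, an enzyme of the anaphase-promoting complex pathway, had 21.8 in P10, 52.5 in P5 and 5.02 in PEF, and KIF4A, a mitotic kinesin, had 19.1 in P10, 42.5 in P5 and 3.43 in PEF. Of 50 replication and repair genes 2 were lower and 2 higher (median -0.27). MCM5, a subunit of the replicative helicase, had 5.63 in P10, 20.6 in P5 and 2.12 in PEF, and RPA3, of the single-strand binding complex, had 188 in P10, 62.1 in P5 and 88.2 in PEF. The summed level of mitosis genes was 1388 in P10, 1794 in P5 and 417 in PEF. CDKN2A, the cell cycle inhibitor locus, had 4.03 in P10, 28.5 in P5 and 19.4 in PEF.

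Nuclear genes of respiratory complexes had 14 of 50 members lower (28.0%) and 0 higher (median -0.59). ATP5MC1, of the ATP synthase ring, had 13.8 in P10, 55.0 in P5 and 11.7 in PEF, UQCRQ, of complex III, had 13.9 in P10, 53.6 in P5 and 7.08 in PEF, and COX8A, of complex IV, had 16.4 in P10, 44.2 in P5 and 11.3 in PEF. In all 3 genes P5 was the highest group and P10 lay nearer to PEF than to P5. COX17, the copper chaperone of complex IV, had 240.4 in P10, 719.7 in P5 and 175 in PEF. Genes of the mitochondrial genome itself had 1 of 13 higher and 0 lower, the higher one being ATP8 with 173751 in P10, 55142 in P5 and 54233 in PEF at a locus shared by 3 IDs. Proteasome subunits had 2 of 24 lower and 0 higher (median -0.63), and 0 lower after median, quantile or trimmed-mean rescaling. HSPD1, the mitochondrial chaperonin, had 138 in P10, 402 in P5 and 85.1 in PEF.

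Solute carriers had 27 of 170 members lower (15.9%) and 9 higher (median -0.27). The nucleoside transporter SLC28A3 had 0.0317 in P10, 13.2 in P5 and was listed at 0 in PEF. UPP1, which cleaves uridine, had 1.15 in P10, 22.7 in P5 and 2.94 in PEF. Cholesterol and fatty acid synthesis genes had 2 of 25 lower and 0 higher, LSS, the lanosterol synthase, with 13.6 in P10, 38.9 in P5 and 23.5 in PEF. Serine, one-carbon and nucleotide synthesis genes had 3 of 22 lower and 0 higher, MTHFD2, a mitochondrial folate enzyme, with 9.04 in P10, 25.9 in P5 and 26.9 in PEF. Of glycolysis genes 1 of 20 was higher and 1 lower, and the higher one was ENO2, the neuronal enolase, with 23.0 in P10, 5.90 in P5 and 6.71 in PEF.

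Histone-modifying enzymes and Polycomb genes differed in few members. Histone deacetylases and sirtuins had 0 of 14 in either direction, and Polycomb genes 2 of 23 lower, PHC1 with 13.2 in P10, 33.8 in P5 and 6.21 in PEF and CBX2 with 7.79 in P10, 17.2 in P5 and 1.37 in PEF. Histone lysine methyltransferases and demethylases had 2 of 48 each way. Histone genes had 2 of 6 members lower and 0 higher (median -0.64). The variant histone gene H2AZ1, 1 of the lower members, had 28.0 in P10, 108 in P5 and 22.0 in PEF. C2H2 zinc finger genes had 15 of 191 higher and 1 lower (median 0.36), and 140 had a difference above 0. ZNF277 had 104 in P10, 27.5 in P5 and 36.1 in PEF. With equal sums without mitochondrial genes the zinc finger counts were 10 higher and 3 lower. Among imprinted genes 4 of 13 were lower and 1 higher, DIRAS3, which is imprinted in human, with 6.66 in P10, 87.2 in P5 and 3.86 in PEF and MEST with 20.6 in P10, 48.4 in P5 and 17.1 in PEF. MEST lay at a locus shared by 3 IDs, and without shared loci 2 of 10 imprinted genes were lower and 1 higher.

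The plot of list medians gives the counts of lists not named here. Cytosolic ribosomal proteins had 0 of 27 higher and 1 lower, and the lower one was RPS28 with 363 in P10, 742 in P5 and 261 in PEF. Splicing factors had 1 of 45 higher and 3 lower, among them HNRNPM with 229 in P10, 527 in P5 and 182 in PEF. Mitochondrial ribosomal proteins had 1 of 44 higher and 4 lower, and chaperonins and heat shock proteins 1 of 54 higher and 4 lower. Forkhead factors had 0 of 13 higher and 4 lower, and FOXH1, a partner of SMAD proteins in activin and Nodal signalling, had 3.01 in P10, 15.1 in P5 and 0.0360 in PEF. Matrix proteases and their inhibitors had 0 of 34 higher and 7 lower. Immediate early genes had 2 of 17 higher and 1 lower, interferon response genes 0 of 15 higher and 1 lower, and stress genes 0 of 14 higher and 1 lower. Trophectoderm genes had 1 of 8 higher and 1 lower. Endoderm and blood lists had 3 and 2 compared members, too few for a median to be described.

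**Figure D4:**
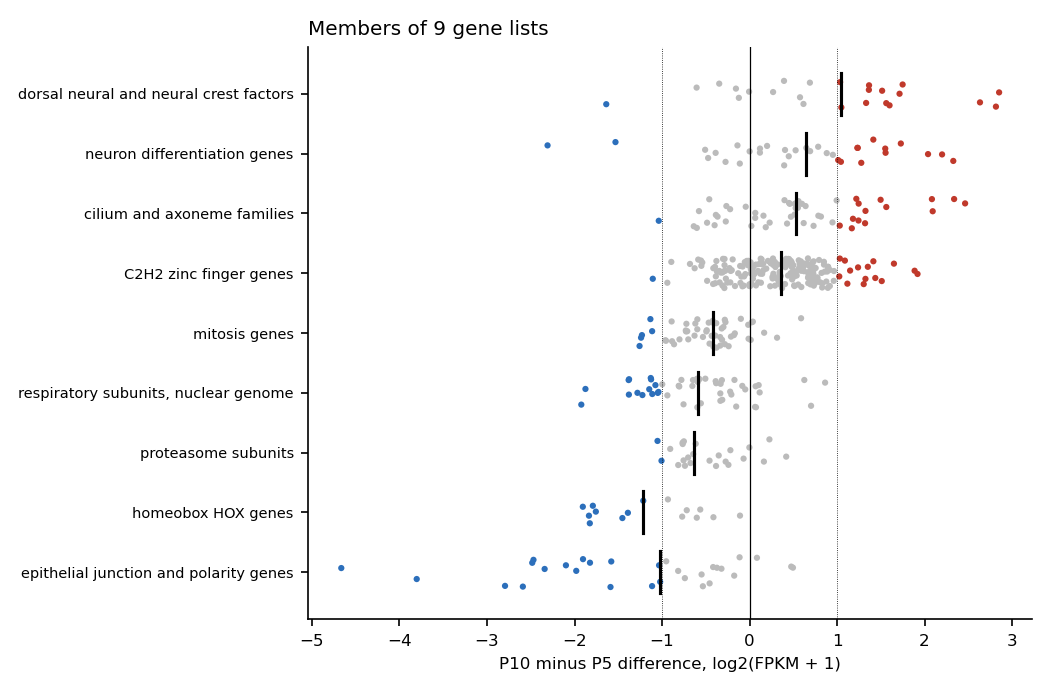
Difference between P10 and P5 of every compared member of 9 gene lists, on the log2(FPKM + 1) scale, with 1 point per gene, black bars at the list medians and dotted lines at differences of 1 in either direction. The list of cilium and axoneme families was drawn up after the values were seen. Most points of the dorsal neural list lie to the right of 0 and all 15 HOX genes lie to the left of it, while most mitosis and proteasome genes lie left of 0 but inside the dotted lines.

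The small nucleolar and other small RNA genes had 18 of 32 compared members higher and 5 lower (median 1.54). Without IDs listed at 0 in P10 or P5, 5 of 17 were higher and 3 lower (median 0.51). SNORA24 had 177 in P10 and 88.8 in PEF and was listed at 0 in P5, while SNORA30 was listed at 0 in P10 and PEF and had 105 in P5. Most of these genes lie inside host genes, 22 of the 32 shared a locus with another ID, and an exact 0 can be a failed estimate. ESR1, the oestrogen receptor alpha gene, had 133 in P10 and was listed at 0 in P5 and PEF. Among housekeeping families 4 of 243 IDs were listed at 0 in P5 and 4 in P10. These IDs were at 0 in both columns, so they cannot tell whether a 0 in P10 or P5 alone is a failed estimate. The zeros of the small RNA genes and of ESR1 are given as listed, and no fold is drawn from them.

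By chromosome, the median difference of the 18 autosomes ran from -0.14 to 0.05. The X chromosome had 474 compared IDs with a median of 0.08, of which 60 were higher (12.7%) and 38 lower (8.02%). DCX is among the X-linked genes on the higher side, and PAGE4 and POF1B are among those on the lower side.

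**Figure D5:**
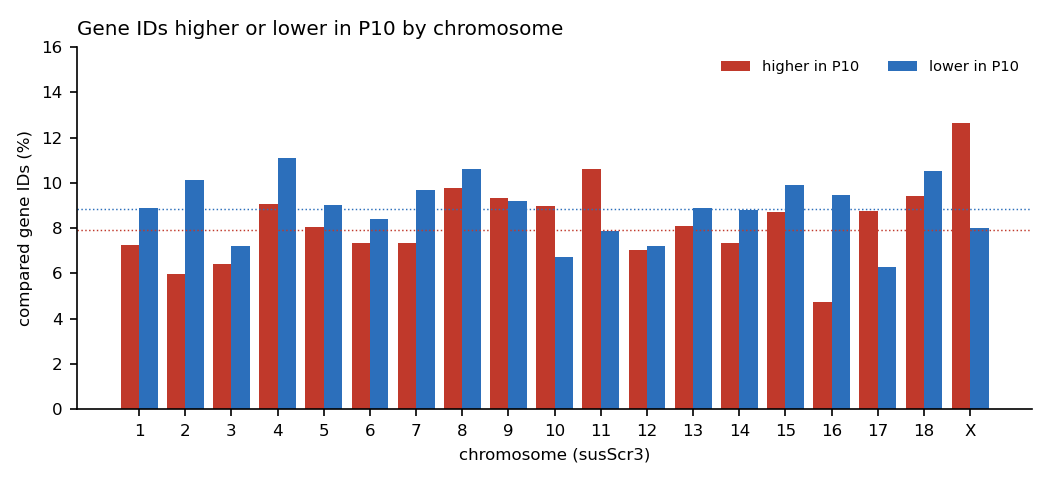
Share of compared gene IDs counted as higher or lower in P10, in percent, for each chromosome of susScr3, with dotted lines at the shares over all compared IDs, 7.91% and 8.86%. Among the chromosomes drawn, X has the highest share of higher IDs, 12.7%.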

How the data were processed

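Per the labels' protocols, RNeasy columns gave the RNA and NEBNext Ultra the 6 libraries, which fall into 3 groups. Bowtie2 2.0.6, TopHat2 2.0.9 and the susScr3 build are named, per the submitters' processing notes. The deposited values are FPKM, per the file headers, with 1 column per group. Not given in the sources used here are the authors' program for FPKM, its annotation and how 2 libraries became 1 value. The depth is unknown: among 774 IDs under an FPKM of 0.15 in P10 and P5, the commonest P10 to P5 ratio was 0.514, shared by 41 within 0.02 on the log2 scale.

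Symbols came from a reference table that matched 11804 IDs (46.6%). Starts in the table count from 0 and are given here from 1. A per-library test had been planned and was replaced by a description, since the table has 1 value per group. Differences of log2(FPKM + 1) were computed in Python 3.11.15 with pandas 2.3.3 and numpy 2.4.6, for IDs that reached an FPKM of 1 in P10 or P5. The code was tested on simulated data without noise, a check of the arithmetic that gives no error rate. The 65 gene lists and the genes compared were chosen with earlier results of these data known. Named genes were the 20 highest and 20 lowest differences, for each list its up to 4 most different members that reached an FPKM of 5, the 10 highest levels among counted genes, genes listed at 0 in P10 or P5, and 7 pluripotency factors. Genes outside this rule are cell type markers, given to check the labels, or are marked in the text as chosen with their values known. DCN, ACTA2 and COL1A2 were picked from the markers with their values known. A number of these genes is not reported here. The alternatives tried were 4 rescalings, a larger difference of 2, pseudocounts of 0.1 and 5, dropping the filter or asking for a mean FPKM of 5, and leaving out zeros, shared loci, or IDs without a symbol.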

Additional observations from a re-analysis of the deposited data

How the results depend on the processing

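Of the counts as reported, 1060 higher and 1187 lower, a pseudocount of 5 gave 444 and 434, a mean FPKM of at least 5 gave 667 and 677, and a difference of at least 2 gave 171 and 203. Symbols only, without small RNA names, an alternative chosen after seeing the data, gave 508 and 705. A larger pseudocount shrinks differences of low genes by construction, and the other 3 take fewer genes or ask for a larger difference. A pseudocount of 0.1 gave 1587 and 1643, and median, quantile and trimmed-mean scaling gave 1180 and 1071, 1113 and 1133, and 1178 and 1092. Lower IDs outnumbered higher ones as deposited, but not with median or trimmed-mean scaling or a pseudocount of 5. No counted gene named by the rule changed direction, but the alternatives run could hardly have shown such a change. Pseudocounts, filters, thresholds and left-out IDs cannot reverse the sign of a difference. The largest shift of the median difference by a rescaling was -0.14, against a difference of at least 1 in counted genes. Of the 202 counted genes named by the rule, 43 fell under the threshold with a pseudocount of 5 and 117 with a difference of 2. Of 62 list medians 20 took both signs over the alternatives, all 20 within 0.32 of 0 as reported. The depth of the columns is unknown, and low genes are the least certain. No paired analysis was possible because each group has 1 deposited column with no replicate values, and leaving out a replicate was not run for the same reason.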

Other observations

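Gene families of the cilium and its axoneme, a list drawn up, like the members named here, after the values were seen, had 14 of 53 compared members higher in P10 (26.4%) and 1 lower, with a median difference of 0.53. RSPH9, a radial spoke protein, had 5.23 in P10, 0.232 in P5 and 0.0306 in PEF. IFT122, of the intraflagellar transport complex A, had 38.9 in P10, 15.8 in P5 and 16.1 in PEF, and BBS9, of the complex that carries membrane proteins to cilia, had 5.96 in P10, 1.93 in P5 and 8.60 in PEF. The lower member was DNAH11, an axonemal dynein, with 0.258 in P10, 1.58 in P5 and 0.0169 in PEF. RPGRIP1, described with the retinal genes, also belongs to this list.

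Among IDs without a symbol, ENSSSCG00000008882 had an FPKM of 0.394 in P10, 70.7 in P5 and 0.0833 in PEF, and ENSSSCG00000009703 had 0.178 in P10, 23.1 in P5 and 25.8 in PEF. On the higher side ENSSSCG00000018700 had 34.8 in P10, 0.878 in P5 and 10.6 in PEF, and ENSSSCG00000020462 had 132 in P10, 8.72 in P5 and 114 in PEF. RBM3, a cold-inducible RNA-binding protein chosen after its values were seen, had 79.3 in P10, 336 in P5 and 191 in PEF. S100A10, the partner of annexin A2, had 777 in P10, 237 in P5 and 281 in PEF.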
